A study of Rattus norvegicus with 12 samples.

Results

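The SMAD proteins and the repressors that hold them back were described in the kidney cortex of young and adult male rats with and without streptozocin diabetes. The genes are Smad1 to Smad7, Ski, Skil and Tgif1, 10 in all, and every probe set that the array's annotation gives to 1 of them alone was taken. This found 20 probe sets for 9 of the genes, out of 31042 probe sets of the whole array that are not controls and 14213 genes that the annotation names singly. No probe set carried the name of Ski in the annotation used here, and Ski was not analysed here. Of the 20 probe sets, 16 (covering all 9 genes) lay above the limit for dim signals and entered the tests, and 4 did not (1 of Smad3, 2 of Smad6, 1 of Smad7). The set was chosen by family, and in the case of Skil also by its measured fall in diabetic rats at both ages, so the diabetes differences of Skil are given as a description with no p-value.

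The cortex samples fell into 4 groups of 3 arrays: diabetic and nondiabetic rats of 20 weeks, and diabetic and nondiabetic rats of 10 weeks. Diabetic rats had received streptozocin, which destroys pancreatic beta cells, by vein at 65 mg/kg, at 14 weeks of age in the older and at 4 weeks in the younger group, and an insulin palmitate pellet 3 days later; the protocol ran for 6 weeks. Their blood glucose is labelled as 350 to 450 mg/dl. Nondiabetic rats received vehicle at the same ages and a palmitate vehicle pellet, and all rats ate and drank freely. All were male littermates, the insulin pellet went with diabetes, and no group had streptozocin without diabetes, so the effects of diabetes, toxin and pellet cannot be told apart. The label of 10-week diabetic replicate 1 names an insulin palmitate vehicle pellet. No label says whether each array holds a rat of its own, so the p-values rest on the spread among arrays, which may be technical.

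SMADs carry the signal of the TGF-beta family from receptors at the membrane to genes in the nucleus. Smad2 and Smad3 are phosphorylated by TGF-beta and activin receptors, Smad1 and Smad5 by receptors of the bone morphogenetic proteins (BMPs), and both kinds join Smad4 to bind DNA, while Smad6 and Smad7 block the receptors and the other SMADs. Ski, Skil (also called SnoN) and Tgif1 sit on SMAD complexes and recruit corepressors; Skil and Smad7 are themselves classic genes switched on by SMADs, so both act in feedback loops. In the kidney the pathway is best known for driving matrix deposition in diabetic and other chronic disease.

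The promoters of these 2 feedback genes are shown because the results below turn on them and because both are known SMAD targets. Each window runs from 250 bases before to 50 bases after the RefSeq gene start (build GRCr8) and is written 5′ to 3′ in the gene's direction; capitals mark CAGAC, or GTCTG, the same letters on the other strand, a short SMAD-binding element. The Skil window lies at chr2:114203523-114203822 on the minus strand and the Smad7 window at chr18:71263258-71263557 on the plus strand.
Skil: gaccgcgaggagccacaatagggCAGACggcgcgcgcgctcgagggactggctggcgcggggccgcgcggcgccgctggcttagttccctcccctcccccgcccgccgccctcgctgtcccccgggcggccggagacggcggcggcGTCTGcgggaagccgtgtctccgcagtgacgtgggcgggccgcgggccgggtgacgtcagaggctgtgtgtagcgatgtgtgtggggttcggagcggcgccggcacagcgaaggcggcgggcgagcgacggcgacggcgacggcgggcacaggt
Smad7: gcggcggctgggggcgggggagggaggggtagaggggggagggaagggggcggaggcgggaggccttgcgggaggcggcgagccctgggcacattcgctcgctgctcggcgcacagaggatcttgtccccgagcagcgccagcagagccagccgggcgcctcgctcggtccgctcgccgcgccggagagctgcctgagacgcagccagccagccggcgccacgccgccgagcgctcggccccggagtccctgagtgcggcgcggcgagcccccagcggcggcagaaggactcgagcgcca
The Skil window holds 2 matches, starting 227 and 104 bases before the gene start. The Smad7 window holds none. RefSeq windows were found for 8 of the 10 genes, and that of Skil was the only 1 with a match; 50.1% of all 33469 windows of this length in the table have 1 or more. The longer palindrome GTCTAGAC was in none of the 8 genes' windows and in 0.197% of all windows. These matches are letters only and show no binding.

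Signals are linear values per probe set, and every deposited array had the same trimmed mean of 500.2; arrays correlated at 0.941 to 0.976 and none were identical. The number of arrays limits the precision, and a shift shared by most transcripts could not be seen. The ratio of 3′ to 5′ Gapdh control signals, a measure of RNA breakdown, was 1.41 to 1.76 on all arrays except 20-week nondiabetic replicate 1, where it was 2.09. Every 20-week diabetic array, at 1.60 to 1.76, lay above every 10-week diabetic array, at 1.44 to 1.495. The same ratio of beta-actin was 7.46 to 11.4 in 20-week diabetic and 6.87 to 11.2 in 20-week nondiabetic arrays, and 6.30 to 8.57 in 10-week diabetic and 6.75 to 7.47 in 10-week nondiabetic arrays; by this ratio 20-week diabetic replicate 2 was the highest. The array with the high Gapdh ratio and the one with the unclear pellet label are called the doubted arrays. All 6 proximal tubule markers (Lrp2, Cubn, Slc34a1, Slc5a2, Slc22a6 and Aqp1) were above the dim limit. The leukocyte markers Cd3e, Cd79b and Itgam and the fat markers Plin1 and Lep were below it.

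Skil was lower in diabetic rats at both ages. Its signal was 4118, 4218 and 4437 in 20-week diabetic rats, against 6224, 6726 and 6906 in 20-week nondiabetic rats. At 10 weeks it was 4526, 4324 and 5072 in diabetic rats, against 6201, 6930 and 5998 in nondiabetic rats. All 6 diabetic arrays lay below all 6 nondiabetic ones, whatever the age. The group means were 4257 ± 163 in 20-week diabetic and 6619 ± 354 in 20-week nondiabetic rats, and 4641 ± 387 in 10-week diabetic and 6376 ± 490 in 10-week nondiabetic rats (SD, n = 3 each).

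**Figure D1:**
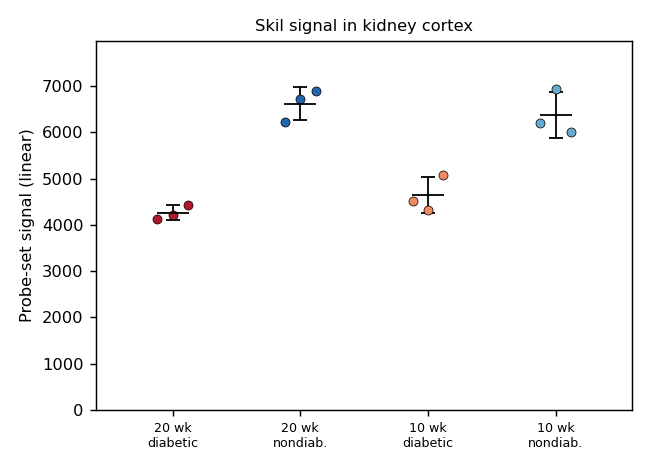
Skil signal (linear probe-set signal, y axis from 0) in each array of the 4 groups; points are arrays, the dash and bars are mean ± SD (n = 3). Diabetic arrays sit between 4118 and 5072 and nondiabetic arrays between 5998 and 6930.

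On the log2 scale the diabetes difference of Skil was -0.64 ± 0.08 (SE), or 1.55-fold lower, at 20 weeks, and -0.46 ± 0.08, or 1.38-fold lower, at 10 weeks. The spread between replicates was 3.83% to 8.34% of the group mean, and 3.12% of all tested probe sets had a larger fall at 20 weeks and 7.95% at 10 weeks. The 20-week difference minus the 10-week one was -0.18 ± 0.12. Leaving out single arrays kept the 20-week value between -0.68 and -0.60 and the 10-week value between -0.52 and -0.40. With every array centred on its median the values were -0.67 and -0.35; this scaling moved the median of all probe sets by 0.11 at 10 weeks, against -0.03 at 20 weeks.

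Age by itself, which played no part in choosing Skil, left no difference past the test. Between 20-week and 10-week nondiabetic rats Skil differed by 0.06 ± 0.08 (95% interval -0.12 to 0.23, limma adjusted p = 0.868), and between 20-week and 10-week diabetic rats by -0.12 ± 0.08 (-0.30 to 0.06, adjusted p = 0.556). Intervals here and below are those of the limma model and are not adjusted for the number of probe sets.

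Summed markers of other cell types also differed between diabetic and nondiabetic rats. The podocyte, endothelial, leukocyte and fat sums did so without overlap at 20 weeks only, and the collecting duct sum at 10 weeks only. The summed signal of the podocyte markers (4 of 5 with a probe set) was 4038 to 4487 in 20-week diabetic and 4945 to 5427 in 20-week nondiabetic rats, and 4185 to 5478 in 10-week diabetic and 5226 to 5885 in 10-week nondiabetic rats. That of the endothelial markers (4 of 5) was 5035 to 5318 in 20-week diabetic and 6086 to 7037 in 20-week nondiabetic rats, and 5273 to 6103 in 10-week diabetic and 5606 to 7095 in 10-week nondiabetic rats. At 10 weeks these markers leaned in different directions. Pecam1 was 531 to 739 in diabetic and 432 to 575 in nondiabetic rats, while Vwf was 181 to 493 against 562 to 1181. The median log2 difference of the endothelial markers was -0.0087 at 10 weeks and -0.325 at 20 weeks. The leukocyte sum (all 6 with a probe set, Cd3e, Cd79b and Itgam below the dim limit) ran the other way, at 1328 to 1599 in 20-week diabetic and 893 to 1171 in 20-week nondiabetic rats. At 10 weeks it was 1095 to 1308 in diabetic and 982 to 1103 in nondiabetic rats, which overlap. The collecting duct sum (4 of 4) was 9769 to 12965 in 10-week diabetic and 7624 to 9331 in 10-week nondiabetic rats, and 8550 to 10093 in 20-week diabetic and 7389 to 8586 in 20-week nondiabetic rats. This sum is mostly Aqp2, at 5340 to 6646 in 20-week diabetic and 4249 to 5179 in 20-week nondiabetic rats, while Scnn1g on its brightest probe set was 442 to 560 in 20-week diabetic and 609 to 666 in 20-week nondiabetic rats, and the median log2 difference of the 4 markers at 20 weeks was -0.10. The fat sum (4 of 4, Plin1 and Lep below the dim limit) was 784 to 1269 in 20-week diabetic and 494 to 683 in 20-week nondiabetic rats, and 487 to 1210 in 10-week diabetic and 256 to 836 in 10-week nondiabetic rats. At 20 weeks the fat sum was mostly Cidec, at 496 to 1054 in diabetic and 313 to 472 in nondiabetic rats. Adipoq was 195 to 214 against 141 to 158, and Plin1 on its brightest probe set 3.96 to 62.8 against 25.0 to 61.9. In whole cortex, fewer cells of a type and less RNA per cell cannot be told apart, and the part of these shifts in the Skil values was not tested. The sums of proximal tubule, thick ascending limb and distal tubule, and fibroblast or smooth muscle markers overlapped between diabetic and nondiabetic rats at both ages. Single markers of the limb and distal tubule list moved in opposite directions at 20 weeks. Slc12a3 was 1776 to 2378 in diabetic and 2727 to 3386 in nondiabetic rats, and Calb1 10233 to 12940 against 7484 to 8783.

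The transcripts whose signals followed Skil most closely over the 12 arrays were found by Pearson correlation of log2 signals, as a description. They were Acsl3, a fatty acid-activating enzyme (r = 0.941), Hspbap1 (0.94), Tmem37 (0.94), Rpp25 (0.929), Psat1, an enzyme of serine synthesis (0.926), Baz1b (0.926), the potassium channel subunit Kcne1 (0.926) and Pofut2, which adds fucose to proteins (0.925). Acsl3, for example, averaged 722 ± 97.2 in 20-week diabetic and 1254 ± 163 in 20-week nondiabetic rats, and 829 ± 99.3 in 10-week diabetic and 1287 ± 98.6 in 10-week nondiabetic rats. These arrays share the diabetic and nondiabetic grouping, so a transcript that was lower in diabetes at both ages tends to correlate with Skil. By how they were picked, these 8 are the highest among tested probe sets that name a single gene, with numbered loci and members left out. Over the same 12 arrays the other members' correlations with Skil ran from -0.54, for Tgif1, to 0.607, for the brighter Smad4 probe set.

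On its brightest probe set Smad7, the inhibitory SMAD that targets TGF-beta receptors for breakdown, stood apart in 1 group alone, the 10-week nondiabetic rats. Its brightest probe set gave 194, 255 and 293 in 10-week diabetic rats, against 539, 412 and 390 in 10-week nondiabetic rats. At 20 weeks it gave 246, 259 and 264 in diabetic rats, against 216, 259 and 275 in nondiabetic rats. The 10-week nondiabetic arrays lay above all 9 others, and the other 3 groups overlapped.

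The diabetes difference of this probe set was -0.86 ± 0.18 at 10 weeks, 1.81-fold lower, with a limma adjusted p of 0.0848, so it missed the threshold of 0.05. It missed it in all 22 alternative settings too, with values from -0.99 to -0.70 and adjusted p from 0.0647 to 0.322. At 20 weeks the difference was 0.04 ± 0.18 (95% interval -0.35 to 0.44, adjusted p = 0.941). The change of the diabetes difference with age was 0.90 ± 0.26 (unadjusted p = 0.00412, adjusted p = 0.466), and 20-week nondiabetic rats lay 0.83 below those of 10 weeks on the log2 scale (difference -0.83 ± 0.18, unadjusted p = 0.000586, adjusted p = 0.348). These 3 values share the 10-week nondiabetic arrays or are built from them.

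The dimmest Smad7 probe set, below the limit for testing, gave 26.6, 30.3 and 22.1 in 10-week diabetic rats, against 63.9, 71.7 and 58.9 in 10-week nondiabetic rats. These groups did not overlap either. At 20 weeks it gave 42.8, 33.2 and 55.5 in diabetic rats, against 25.4, 73.3 and 48.8 in nondiabetic rats. The other, of middle brightness, overlapped at both ages, with a difference of -0.73 ± 0.51 at 10 weeks and 0.13 ± 0.51 at 20 weeks, and did not pass. On both of these probe sets it was the 10-week diabetic mean that lay below the others. For the dimmest it was 26.4, against 43.9 to 64.9 in the other groups. For the one of middle brightness it was 59.3, against 84.3 to 91.6.

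**Figure D2:**
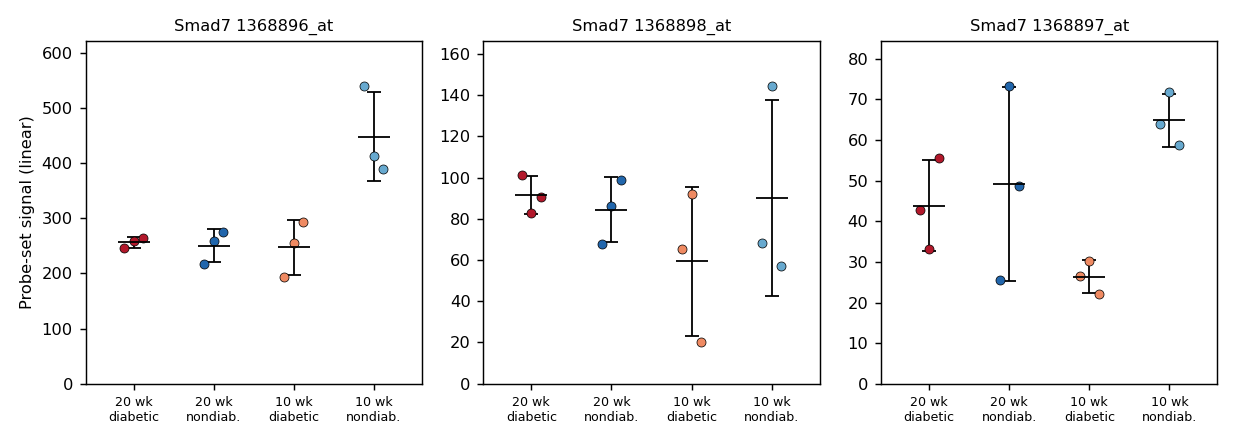
Signals of the 3 Smad7 probe sets (linear, y axes from 0 with their own scales) in each array; points are arrays, the dash and bars are mean ± SD (n = 3). In the left panel the 10-week nondiabetic arrays lie at 390 to 539 and all others at 194 to 293; the right panel was below the limit for testing.

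Smad6, the inhibitory SMAD best known for damping BMP signals, was dim on all 4 probe sets, with signals of at most 197 in any array. Its brightest gave 132, 192 and 85.5 in 20-week diabetic rats, against 90.2, 136 and 162 in 20-week nondiabetic rats. At 10 weeks it gave 99.4, 177 and 110 in diabetic rats, against 197, 174 and 193 in nondiabetic rats. As with the brightest Smad7 probe set, this probe set's 10-week nondiabetic mean was the highest of the 4, but 1 diabetic array reached into its range. The differences were 0.04 ± 0.33 at 20 weeks and -0.59 ± 0.33 at 10 weeks (adjusted p = 0.967 and 0.547), and signals this low leave the size of a change uncertain. The other tested probe set gave 104, 47.2 and 185 in 20-week diabetic rats, against 97.5, 68.6 and 154 in 20-week nondiabetic rats. In 10-week rats it gave 43.2, 140 and 45.1 with diabetes, against 65.2, 97.2 and 76.1 without, so here the 10-week nondiabetic mean was below both 20-week means. It overlapped at both ages (-0.06 ± 0.54 at 20 weeks, -0.27 ± 0.54 at 10 weeks). Of the 2 probe sets below the limit for testing, 1 overlapped at both ages, and the other did not overlap at 10 weeks, with 27.9, 31.4 and 37.2 in diabetic rats, against 52.5, 39.8 and 41.5 in nondiabetic rats.

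Smad2 and Smad3, the carriers of TGF-beta and activin signals, showed no diabetes difference past the test. Smad2 gave 562, 583 and 660 in 20-week diabetic rats, against 576, 532 and 583 in 20-week nondiabetic rats. In 10-week rats Smad2 gave 531, 548 and 554 with diabetes, against 567, 533 and 524 without. The groups overlapped at both ages, and the differences were 0.09 ± 0.10 (95% interval -0.13 to 0.31) at 20 weeks and 0.01 ± 0.10 (-0.21 to 0.23) at 10 weeks.

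Smad3 gave 925, 998 and 895 on its brighter probe set in 20-week diabetic rats, against 966, 883 and 789 in 20-week nondiabetic rats. The younger rats gave 912, 746 and 828 with diabetes, against 957, 978 and 864 without. Again the groups overlapped at both ages, with differences of 0.10 ± 0.11 (-0.14 to 0.34) at 20 weeks and -0.17 ± 0.11 (-0.41 to 0.06) at 10 weeks. Its other probe set was dim, at most 64.8 on any array, and was not tested. Over both genes and both ages the intervals of the diabetes difference ran no wider than -0.41 to 0.34.

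Among the SMADs of the BMP branch, Smad1 leaned in opposite directions at the 2 ages. The brighter of its probe sets gave 1544, 1552 and 1735 in 20-week diabetic rats, against 1438, 1373 and 1461 in 20-week nondiabetic rats, with no overlap. At 10 weeks it gave 1301, 1238 and 1448 in diabetic rats, against 1588, 1517 and 1440 in nondiabetic rats, where 1 diabetic array lay within the nondiabetic range. The differences were 0.18 ± 0.09 at 20 weeks (adjusted p = 0.337) and -0.19 ± 0.09 at 10 weeks (adjusted p = 0.458), and the change between them, 0.37 ± 0.12, did not pass either (unadjusted p = 0.0113, adjusted p = 0.517). The other Smad1 probe set gave 0.04 ± 0.28 at 20 weeks and -0.19 ± 0.28 at 10 weeks.

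Smad5 had 4 probe sets, which differed in brightness and in spread. The brightest gave 964, 978 and 956 in 20-week diabetic rats, against 1084, 1096 and 976 in 20-week nondiabetic rats. In 10-week rats the values were 1029, 875 and 883 with diabetes, against 939, 930 and 931 without. The groups overlapped at both ages, with differences of -0.12 ± 0.09 (-0.32 to 0.08) at 20 weeks and -0.01 ± 0.09 (-0.21 to 0.19) at 10 weeks. The next brightest gave 336, 317 and 328 in 10-week diabetic rats, against 414, 370 and 395 in 10-week nondiabetic rats, with no overlap. Its 10-week difference of -0.27 ± 0.25 did not pass (adjusted p = 0.739). Its 20-week groups overlapped, with a difference of 0.10 ± 0.25. Of the other 3, the widest spread was on a dim one, which gave 0.62 ± 0.46 at 20 weeks and -0.65 ± 0.46 at 10 weeks, and the difference of these 2, 1.27 ± 0.65, did not pass (adjusted p = 0.648). Its signal ranged from 25.8 to 165 over the arrays. The remaining Smad5 probe set gave -0.31 ± 0.44 at 20 weeks and -0.10 ± 0.44 at 10 weeks, with overlap at both ages.

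Smad4, the partner that all the signal-carrying SMADs share, varied little on its brighter probe set. It gave 1481, 1833 and 1774 in 20-week diabetic rats, against 1822, 1833 and 1967 in 20-week nondiabetic rats. Values in 10-week rats were 1724, 1741 and 1921 with diabetes, against 1935, 1854 and 1746 without. The differences were -0.15 ± 0.09 (-0.35 to 0.05) at 20 weeks and -0.04 ± 0.09 (-0.24 to 0.16) at 10 weeks. The dimmer probe set gave -0.10 ± 0.21 at 20 weeks and -0.39 ± 0.21 at 10 weeks (adjusted p = 0.85 and 0.522).

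Tgif1, a homeodomain repressor that binds Smad2 and also retinoid response elements, leaned upward in the older diabetic rats. It gave 954, 1520 and 1484 in 20-week diabetic rats, against 1023, 868 and 774 in 20-week nondiabetic rats. Diabetic replicate 1 lay within the nondiabetic range and the other 2 diabetic arrays far above it. At 10 weeks it gave 1019, 735 and 790 in diabetic rats, against 694, 657 and 1028 in nondiabetic rats. The difference was 0.55 ± 0.21 at 20 weeks (unadjusted p = 0.0223, adjusted p = 0.208) and 0.11 ± 0.21 at 10 weeks (adjusted p = 0.893).

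**Figure D3:**
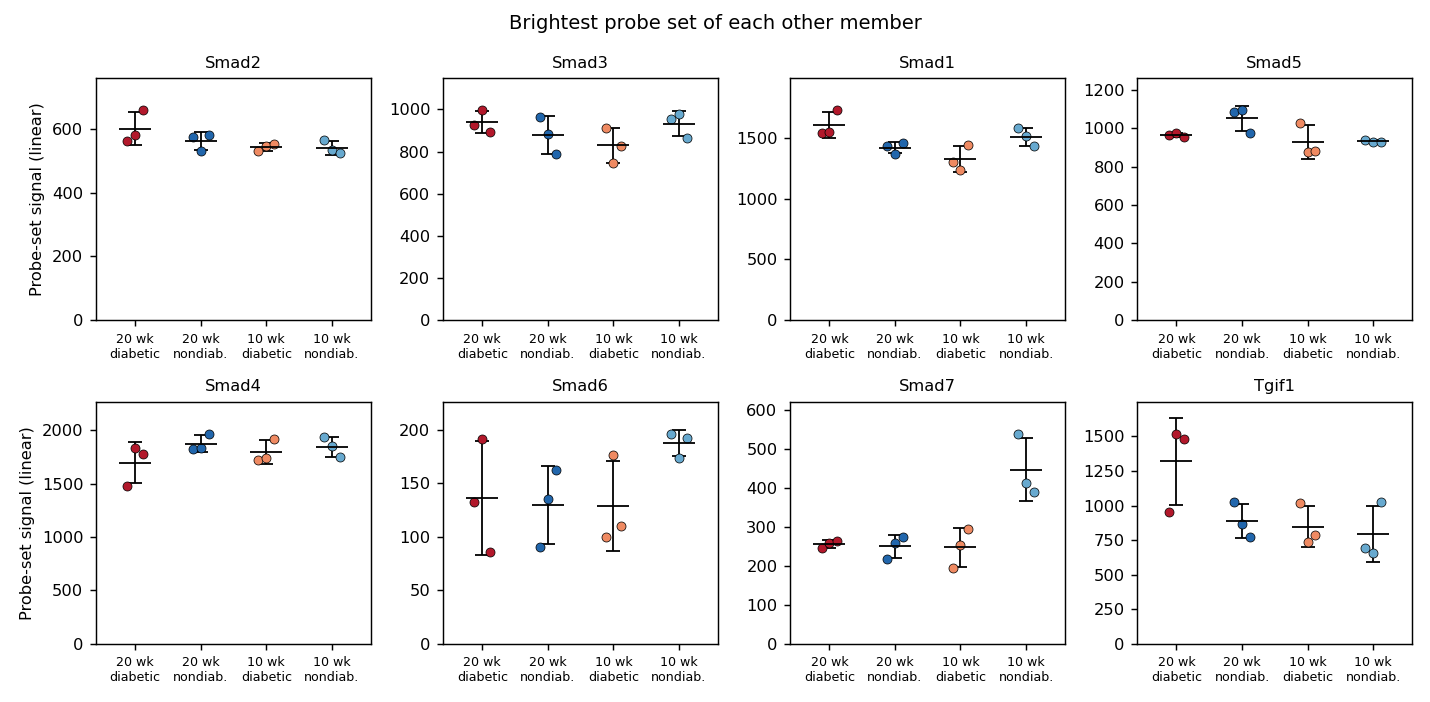
Signals of the brightest probe set of the 8 other genes (linear, y axes from 0 with their own scales) in each array; points are arrays, the dash and bars are mean ± SD (n = 3). Smad7 is high in 10-week nondiabetic rats, 2 of 3 Tgif1 values are high in 20-week diabetic rats, and Smad2 to Smad5 change little.

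Counted together, none of the 15 tested probe sets outside Skil passed limma's adjusted p of 0.05 for diabetes at 20 weeks, where 2.84% of all tested probe sets passed, or at 10 weeks, where 0.306% passed. By unadjusted p under 0.05 there was 1 at 20 weeks (Tgif1; 16.8% of all probe sets) and 2 at 10 weeks (Smad7 and Smad1; 10.9% of all). Groups did not overlap for 1 of the 15 at 20 weeks, Smad1, which was higher, as were 10.1% of all tested probe sets. At 10 weeks this held for 2 of the 15, 1 each of Smad7 and Smad5, both lower, as were 9.52% of all. None of these counts stands far above the share of the whole array, and those at 20 weeks lie below it.

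Over both ages together none of the 15 passed, against 4.47% of all probe sets; Smad7 (-0.41 ± 0.13, adjusted p = 0.104) and Tgif1 (0.33 ± 0.15, adjusted p = 0.268) came nearest and were the 2 with an unadjusted p under 0.05. The median difference of the 15 was 0.04 at 20 weeks and -0.19 at 10 weeks, while that of all tested probe sets was -0.0043 and -0.02. Centring arrays on their medians moves the 10-week values up by 0.11. No probe set of the array passed for the change of the diabetes difference with age (0%), and 2 of the 15, Smad7 and Smad1, had an unadjusted p under 0.05, against 7.95% of all.

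**Figure D4:**
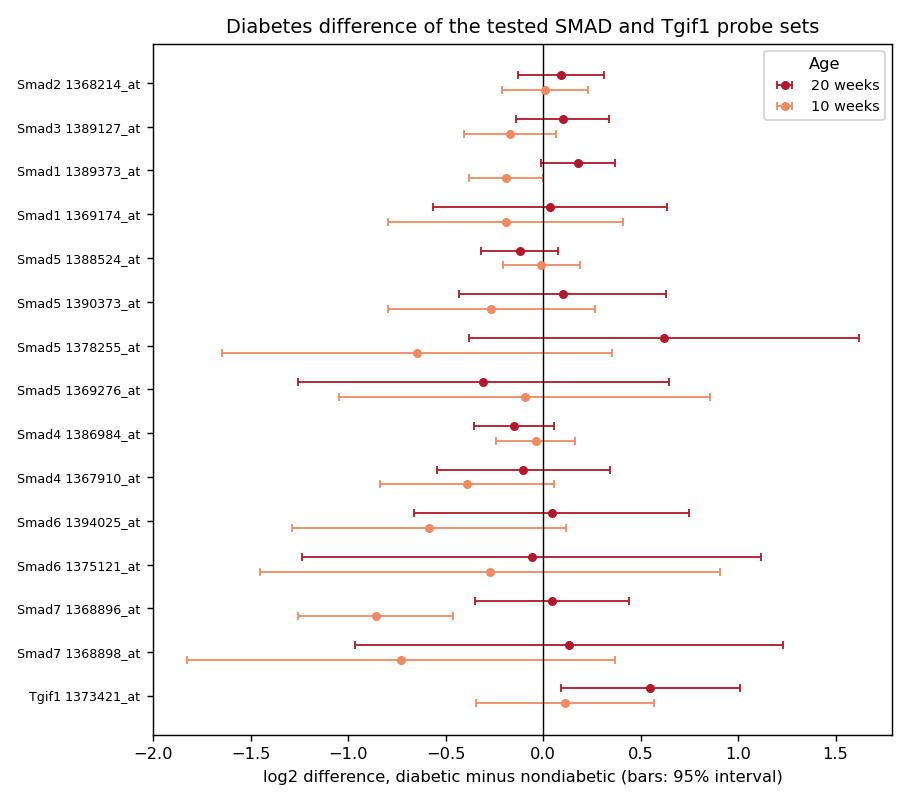
Diabetes difference (x axis, log2, diabetic minus nondiabetic) of the 15 tested probe sets outside Skil at 20 and 10 weeks; points are limma estimates from 3 against 3 arrays and bars their 95% intervals, not adjusted for multiple tests. The 10-week value of Smad7, -0.86, lies farthest from 0 relative to its interval.

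Maturation alone was asked with nondiabetic rats of 20 against 10 weeks. None of the 16 tested probe sets passed and neither did any other on the array (0%), with 1 of the 16, Smad7, at an unadjusted p under 0.05 against 8.61% of all. Groups did not overlap for 1 higher probe set, of Smad5 (6.36% of all), and for 2 lower ones, of Smad7 and Smad6 (5.7% of all). In diabetic rats of 20 against 10 weeks none of the 16 passed, against 0.66% of all. The 3 with an unadjusted p under 0.05, against 13.6% of all, were Smad1 (0.28 ± 0.09, adjusted p = 0.191), that dim Smad5 probe set (1.37 ± 0.46, adjusted p = 0.218) and Tgif1 (0.62 ± 0.21, adjusted p = 0.22). Groups did not overlap for 3 of the 16, of Smad1, Smad2 and Smad5, all higher, as were 11.6% of all.

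The proteins that modify, anchor or partner the SMADs were examined as a list of 52 genes, of which 45 were tested on their brightest probe set. Over both ages 2 fell (2.34% of all tested probe sets did) and 1 rose (2.14% of all). On these probe sets none passed at 20 or at 10 weeks. The list's median was -0.02 over both ages, against -0.01 for all tested probe sets. A dimmer Zeb2 probe set, outside this count, rose at 20 weeks (1.68 ± 0.35, limma adjusted p = 0.0262). It gave 216, 214 and 238 in 20-week diabetic rats, against 69.4, 42.2 and 114 in 20-week nondiabetic rats. The brightest Zeb2 probe set gave 0.49 ± 0.185 at 20 weeks (adjusted p = 0.2), and no other tested one passed there. Ranbp3, which carries Smad2 and Smad3 out of the nucleus, gave 626, 660 and 604 in 20-week diabetic rats, against 869, 940 and 813 in 20-week nondiabetic rats. In 10-week rats it gave 528, 573 and 516 with diabetes, against 803, 758 and 564 without. The groups did not overlap at 20 weeks, while at 10 weeks 1 nondiabetic array lay within the diabetic range. The difference over both ages was -0.42 ± 0.09 (limma adjusted p = 0.0222).

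Tgfbrap1, a protein that binds TGF-beta receptors and Smad4, fell as well (-0.39 ± 0.09, limma adjusted p = 0.0343). Ep300, an acetyltransferase that SMADs recruit to activate genes, rose by 0.32 ± 0.08 on the log2 scale (adjusted p = 0.0463), while its other probe set was too dim to test. Most settings lost the calls of Tgfbrap1 and Ep300, each in 13 of 21 alternatives, and 7 of 21 lost that of Ranbp3. None of the 3 passed without both doubted arrays (adjusted p = 0.0834, 0.088 and 0.115). Ranbp3 and Tgfbrap1 both missed the threshold without diabetic replicate 3 or nondiabetic replicate 2 of 20 weeks, or without diabetic replicate 1 or 3 or nondiabetic replicate 1 or 2 of 10 weeks. Tgfbrap1 also missed it without 20-week diabetic replicate 1 or 2, 20-week nondiabetic replicate 3 or 10-week diabetic replicate 2, and Ep300 passed in single omissions only without 10-week diabetic replicate 2 or 10-week nondiabetic replicate 1. Tgif2, a close relative of Tgif1, gave 0.28 ± 0.25 over both ages and did not pass, and both probe sets of Smad9, a relative of Smad1, were too dim to test.

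Genes that TGF-beta and SMADs are known to regulate, other than Skil and Smad7, made up a list of 32, of which 25 were tested. The list was chosen with earlier results of these data known, so its counts and medians here and below are a description. At 20 weeks 4 rose (1.22% of all tested probe sets did), 1 fell (1.62% of all) and 20 did not pass, with a median of 0.34 against -0.0043 for all tested probe sets. At 10 weeks none passed, with a median of -0.07 against -0.02; the difference between the ages passed for none of them. The collagens and Timp1 on this list did not pass at 20 weeks on their brightest probe sets. Col1a1 gave 0.24 ± 0.24, Col3a1 0.07 ± 0.23, Col4a1 -0.14 ± 0.17 and Timp1 0.50 ± 0.26, and Col1a2 was near 0. The dimmer Col1a1 probe set gave 0.80 ± 0.39 and did not pass either (limma adjusted p = 0.32). Ccn2, or connective tissue growth factor, gave 5208, 5410 and 5447 in 20-week diabetic rats, against 4104, 2869 and 3229 in 20-week nondiabetic rats, a difference of 0.67 ± 0.16 (adjusted p = 0.0421). In 10-week rats it gave 2280, 3097 and 2349 with diabetes, against 2298, 2513 and 3306 without, and the groups overlapped.

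Fn1, or fibronectin, gave 1226, 1328 and 950 in 20-week diabetic rats, against 838, 779 and 524 in 20-week nondiabetic rats (0.73 ± 0.17, adjusted p = 0.041). Spsb1, an adaptor for protein breakdown, rose by 0.89 ± 0.18 (adjusted p = 0.0237); of its other probe sets 1 rose (1.25 ± 0.30) and 1 did not pass (0.12 ± 0.31). Myc, a growth regulator that SMADs repress in epithelial cells, gave 294, 342 and 432 in 20-week diabetic rats, against 168, 127 and 106 in 20-week nondiabetic rats (1.42 ± 0.24, adjusted p = 0.00945). Bhlhe40, a repressor that is also part of the circadian clock, gave 391, 320 and 381 in 20-week diabetic rats, against 919, 831 and 928 in 20-week nondiabetic rats (-1.30 ± 0.12, adjusted p = 0.000298). The leukocyte and fat sums given above were also higher, and the podocyte and endothelial sums lower, in 20-week diabetic rats with no overlap; their part in these values was not tested. The count of 4 rises became 1 when diabetic replicate 2 or 3 or nondiabetic replicate 2 or 3 of 20 weeks was left out, and 2 when diabetic replicate 1 or 3 or nondiabetic replicate 2 of 10 weeks was. Over the 22 alternatives Fn1 lost its call in 14, Ccn2 in 12, Spsb1 in 5 and Bhlhe40 in none, and Myc lost its call in 1 of 21.

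In diabetic rats of 20 against 10 weeks 2 of the 25 target genes rose (0.247% of all tested probe sets did), Ccn2 (1.07 ± 0.16, limma adjusted p = 0.0157) and Myc (1.29 ± 0.24, adjusted p = 0.038), and Bhlhe40 fell (-0.65 ± 0.12, adjusted p = 0.038), as did 0.413% of all. The Gapdh ratio moved with this comparison without overlap, as given above, and its part was not tested. These 3 are named after their values were seen, and the comparison shares the 20-week diabetic arrays with the one above.

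Over both ages 5 target genes rose (2.14% of all tested probe sets did) and 1, Bhlhe40 (-0.84 ± 0.09), fell (2.34% of all), with a median of 0.10 against -0.01 for all tested probe sets. The rises included Lox, which cross-links collagen (0.95 ± 0.20, adjusted p = 0.0165, and 1.22 ± 0.24 on another probe set), and Cdkn1a, the cell cycle inhibitor p21 (0.75 ± 0.16, adjusted p = 0.0182), as well as Spsb1, Fn1 and Myc. The count of rises was 3 without 20-week diabetic replicate 2, and that of falls 3 without 20-week diabetic replicate 3. Fn1 lost its call over both ages in 5 of 21 alternatives and Myc in 6 of 20, while Bhlhe40, Spsb1, Lox and Cdkn1a lost theirs in none. Of 29 ligands, receptors and extracellular regulators of the family, 22 were tested, and none passed at 20 weeks, at 10 weeks or over both ages (medians 0.10, 0.03 and 0.06).

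**Figure D5:**
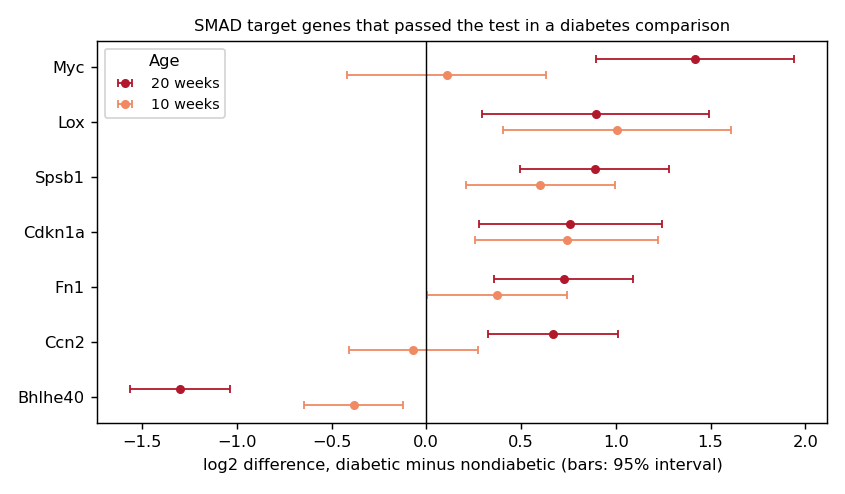
Diabetes difference (x axis, log2, diabetic minus nondiabetic) at 20 and 10 weeks of the 7 target genes that passed in a diabetes comparison, on their brightest probe set; points are limma estimates from 3 against 3 arrays and bars their 95% intervals, not adjusted for multiple tests. Myc and Ccn2 lie above 0 at 20 weeks and near 0 at 10 weeks, and Bhlhe40 lies below 0 at both.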

How the data were processed

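Biotin-labelled cRNA of rat renal cortex was hybridised to 12 one-colour arrays, per the labels' protocols. The deposited values are linear signal intensities per probe set from GCOS, the scanner software named in the submitters' processing notes; no version or detection call was used here. Of 31099 probe sets, 57 controls were left out. Signals under 1 (424 values) were set to 1 before log2, and the dimmest 40% by mean log2 signal (limit 70.9) were left out, which left 18625. Gene names came from the array annotation, updated through RefSeq gene identifiers. The 4 group means were fitted on all 12 arrays with limma 3.58.1 in R 4.3.3 (eBayes with an intensity trend, 8 residual degrees of freedom). Tests were two-sided, with Benjamini-Hochberg adjustment over all 18625 probe sets and a threshold of 0.05, and the test was checked on simulated data. Alternatives covered scaling, filters, the offset, the variance model, array weights, the replicate number as a block and arrays left out. List counts use the brightest probe set of each gene. The text names every member and the 8 genes most like Skil. It also names list genes whose brightest probe set passed in a diabetes comparison, the interaction or the nondiabetic age comparison. At most 6 were named per list and comparison, by the smallest p. The members and gene lists were chosen with earlier results of these data known. Cell type sums add the brightest probe set of each marker.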

Additional observations from a re-analysis of the deposited data

How the results depend on the processing

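Under the alternatives run for each (20 to 22, fewer for dim probe sets and for the comparisons over all groups) no member difference that was tested passed, and the Skil falls kept their direction; of 2044 member differences under alternatives, 99 that passed in neither setting changed sign, and these were counted as unchanged calls. The change of the Skil difference with age moved to -0.32 with median centring (-0.18 in the model used). Counts over all probe sets moved more. Without an intensity trend in the variance they were 7 for diabetes at 10 weeks (57 in the model used), 191 at 20 weeks (529), 502 over both ages (833) and 5 for age in diabetic rats (123). Without both doubted arrays they were 10, 331, 490 and 27, and with only the 2 groups compared 9 at 10 weeks and 309 at 20 weeks. Age in diabetic rats gave 62 with quantile normalization, 238 with median centring, 75 without the filter on dim probe sets and 239 with array weights, and age in nondiabetic rats 1 with median centring. Leaving out single arrays gave 5 to 115 at 10 weeks, 194 to 520 at 20 weeks, 525 to 823 over both ages, 0 to 2 for the change with age, 0 to 9 for age in nondiabetic and 7 to 118 for age in diabetic rats. With the replicate number as a block the counts were 32 at 10 weeks and 73 for age in diabetic rats. Same-numbered arrays of diabetic and nondiabetic rats correlated at -0.04 to 0.15 in their deviations from the group means, and 3 of 6 correlated best with their own number, so the numbers were not taken as pairs. The causes of these shifts were not tested. Signals near the dim limit (Smad6, 2 probe sets of Smad7, 2 of Smad5) limit what can be said of those genes.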
